A study of Mus musculus with 10 samples.

Results

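Protocadherins form the largest group of the cadherin superfamily of cell adhesion proteins, and neurons are the cells that use most of them. The members examined were the genes of the deposited expression table whose symbol starts with Pcdh and whose mean over the 4 group values was at least 3. Of 69 such genes, 67 met that minimum, among 14986 genes that met it in the whole table. The 67 comprised 56 of the 57 clustered genes (Pcdha, Pcdhb and Pcdhg, with the C type genes) and 11 of the 12 non-clustered genes. The minimum left out Pcdh12 (mean 0.89) and Pcdhb1 (mean −1.74), and the members just inside it were Pcdha8 and Pcdhb2 (mean 3.18 each).

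The clustered genes lie in a row in the alpha, beta and gamma clusters. In the alpha and gamma clusters each variable exon has its own promoter and is spliced to constant exons that all genes of that cluster share, whereas the beta genes are mostly made of a single exon. Each neuron switches on a small set of promoters, a choice that involves DNA methylation and loops between promoters and distant enhancers held by CTCF and cohesin, and the proteins bind their own kind on neighboring membranes. In mice, gamma protocadherins are known for dendrite self-avoidance, neuronal survival and synapse formation. The non-clustered genes, of the delta1 and delta2 types and a few others, are separate genes whose proteins act in axon guidance, synapse remodeling and adhesion.

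RNA bound to ribosomes was purified by translating ribosome affinity purification (TRAP) from the hippocampus of male C57BL/6 mice, aged 70 to 90 days, that carried a GFP-tagged ribosomal protein under Gprin3 regulatory sequence (Gprin3-BacTRAP), while the sample labels give the genotype as Wild Type and the source as CA3 neurons of the hippocampus. The 4 groups were unstressed controls, controls exposed to acute stress (AS), unstressed mice raised under early life stress (ELS), and ELS mice exposed to AS. ELS was a wire-grid cage with little nesting material from postnatal day 2 to 12, controls had a full nesting square, both were weaned at day 21, and AS was a forced swim (6 min, water at 25°C) with the tissue taken 1 h later. Each library pooled 5 to 6 mice, and the labels list 2 libraries in each control-reared group and 3 in each ELS group, where the methods give 3 per group. The table holds 1 value per gene and group, a regularized logarithm (rlog) on the log2 scale that shrinks differences of genes with few reads. A value has no SD, no n and no test, and each difference below is a difference of 2 group values in log2 units that cannot be set against a spread between libraries. Library depth was not looked at.

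The markers of CA3 pyramidal neurons were present, with 8 of 8 measured and a log2 summed level of 14.13 in unstressed controls, 13.95 after AS, 13.96 in ELS mice and 13.86 in ELS mice with AS. Gprin3, whose regulatory sequence drives the ribosome tag, was 7.47, 6.92, 6.70 and 6.73 in the same order. Markers of other cells were not near 0. The astrocyte list summed to 14.14, 14.26, 14.28 and 14.81, the oligodendrocyte list to 15.20, 15.23, 15.33 and 15.67, the microglia list to 9.54, 9.78, 9.89 and 10.15, and the interneuron list to 13.59, 13.61, 13.64 and 13.93. In material of this kind, fewer cells of a type and less RNA per cell cannot be told apart.

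AS in controls came with lower values of most protocadherins. Of the 67 members, 60 were lower, against 51.7% of all genes, and 46 (68.7%) were lower by over 0.25, against 12.3% of all genes. The only member higher by over 0.25 was Pcdha10, where 11.4% of all genes were. The median difference over members was −0.38, beside −0.01 over all genes. Of the 312 genes lower by over 0.5, which are 2.08% of all genes, 23 were protocadherins, and 15 of these 23 belonged to the gamma cluster. The CA3 marker list was lower as well, with 8 of 8 genes below the control value and a median difference of −0.20, and so was the dentate granule list, with 7 of 8 below and a median of −0.33. The microglia list was higher, with 8 of 8 genes above and a median of 0.32, as were the 3 erythroid genes measured, with a median of 0.67. Lists of neurons and of other cells did not divide by direction. The oligodendrocyte list was lower in 5 of 8 genes (median −0.27) and the astrocyte list in 6 of 8 (−0.06). The interneuron list was higher in 7 of 10 (0.21). The part of these lists in the result was not tested.

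Unstressed ELS mice showed lower values of most protocadherins, in a comparison that shares the unstressed controls with the one above. Against those controls 59 of 67 members were lower, beside 51.5% of all genes, and 47 were lower by over 0.25, beside 11.9%. No member was higher by over 0.25, a difference that 11.7% of all genes had (2 members were with groups centred on their medians and 4 with transcript length removed), and the median was −0.36. The CA3 markers were again lower in 8 of 8 genes and the dentate granule markers in 7 of 8, while the microglia markers were higher in 8 of 8 and the erythroid genes in 3 of 3 (median 0.67). The oligodendrocyte markers were lower in 5 of 8 (median −0.03). The interneuron markers were higher in 7 of 10 (0.12) and the astrocyte markers in 7 of 8 (0.08). Of the 288 genes lower by over 0.5 (1.92% of all genes), 22 were protocadherins.

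ELS mice exposed to AS also had lower values than unstressed controls, to a smaller extent. Of 67 members 52 were lower, beside 50.9% of all genes, and 33 were lower by over 0.25, where 9.47% of all genes were, and the median was −0.25. Of the 233 genes lower by over 0.5 (1.55% of all genes), 14 were protocadherins. The 4 members higher by over 0.25, a size that 11.3% of all genes reached, were Pcdha1 (0.45), Pcdha2 (0.27), Pcdha10 (0.48) and Pcdh11x (0.30). Cell markers differed in this comparison too. The CA3 list was lower in 7 of 8 genes (median −0.30), and the astrocyte (8 of 8, 0.59), microglia (8 of 8, 0.65), oligodendrocyte (8 of 8, 0.42), interneuron (10 of 10, 0.34) and erythroid (3 of 3, 0.66) lists were higher. Their part in the protocadherin values was not tested.

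Unstressed controls had the highest of the 4 values in 51 of 67 members (76.1%), a pattern seen in 37.4% of all genes. In 38 members (56.7%) the control value stood above the other values by more than the range of those values, beside 20.2% of all genes. In 30 members (44.8%) all 3 stressed groups were lower than controls by over 0.25, beside 5.51% of all genes. Since 1 control value enters every one of these counts, they are not separate observations.

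**Figure D1:**
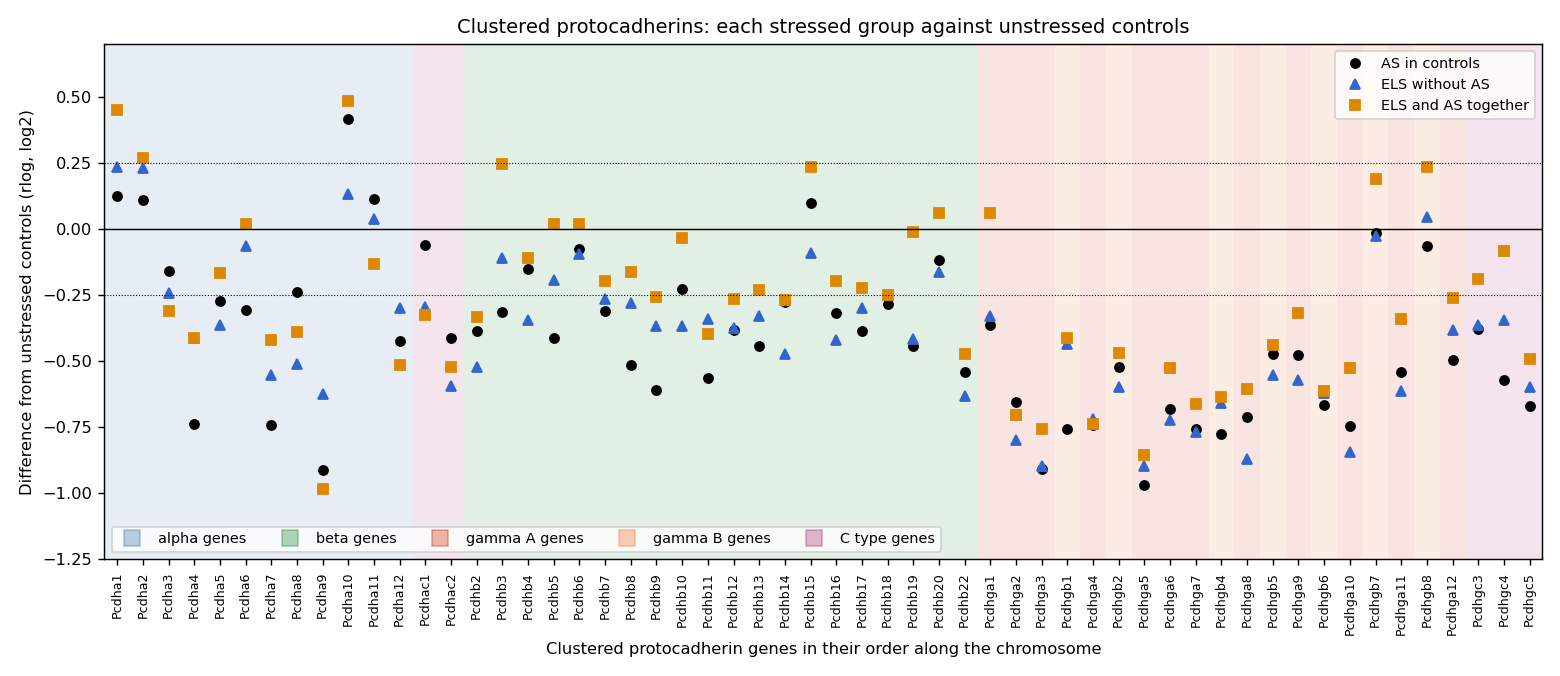
Difference from unstressed controls (y axis, rlog values on the log2 scale) for the 56 clustered genes in their order along the chromosome (x axis), where circles show AS in controls, triangles ELS alone and squares ELS followed by AS, with shading by subfamily and dotted lines at 0.25 above and below 0. Most gamma cluster points lie below the lower dotted line, the lowest point of all is the alpha gene Pcdha9 with both stresses (−0.98), followed by Pcdhga5 after AS in controls (−0.97), and most points above 0 belong to Pcdha1, Pcdha2, Pcdha10 and a few beta and gamma genes.

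Clustered genes differed from controls more than non-clustered genes did. The median of the 56 clustered genes was −0.42 for AS in controls, −0.37 for ELS and −0.27 for ELS with AS, while the 11 non-clustered genes had −0.17, −0.17 and −0.18. Lower by over 0.25 were 42, 42 and 31 of the 56 clustered genes and 4, 5 and 2 of the 11 non-clustered genes. On a linear scale the clustered genes added up to 71.2%, 71.8% and 77.8% of their control sum, and the non-clustered genes to 83.2%, 83.9% and 85.8%. Without the gamma cluster the clustered medians were −0.31, −0.31 and −0.21.

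Transcript length moved with these differences across all genes. Longer transcripts had lower values after AS in controls, with a Spearman rho of −0.39 over 14694 genes, given as a description, and the longest transcripts of the members had a median of 4733 bases beside 3396 bases for all genes. When the median difference of genes of like length was subtracted, the clustered medians became −0.39 for AS in controls, −0.32 for ELS and −0.25 for ELS with AS. The non-clustered medians became −0.11, −0.04 and −0.03. Lower by over 0.25 were then 37, 36 and 28 of the 55 clustered genes with a length, all of them among those lower by over 0.25 before. Of the non-clustered genes only Pcdh1 remained in each comparison, in place of 4, 5 and 2. In ELS mice 4 members, Pcdha1, Pcdha2, Pcdh11x and Pcdh15, were then higher than controls by over 0.25, where none had been. The shares of all genes past 0.25 with length removed were not computed, so these counts have no background beside them.

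**Figure D2:**
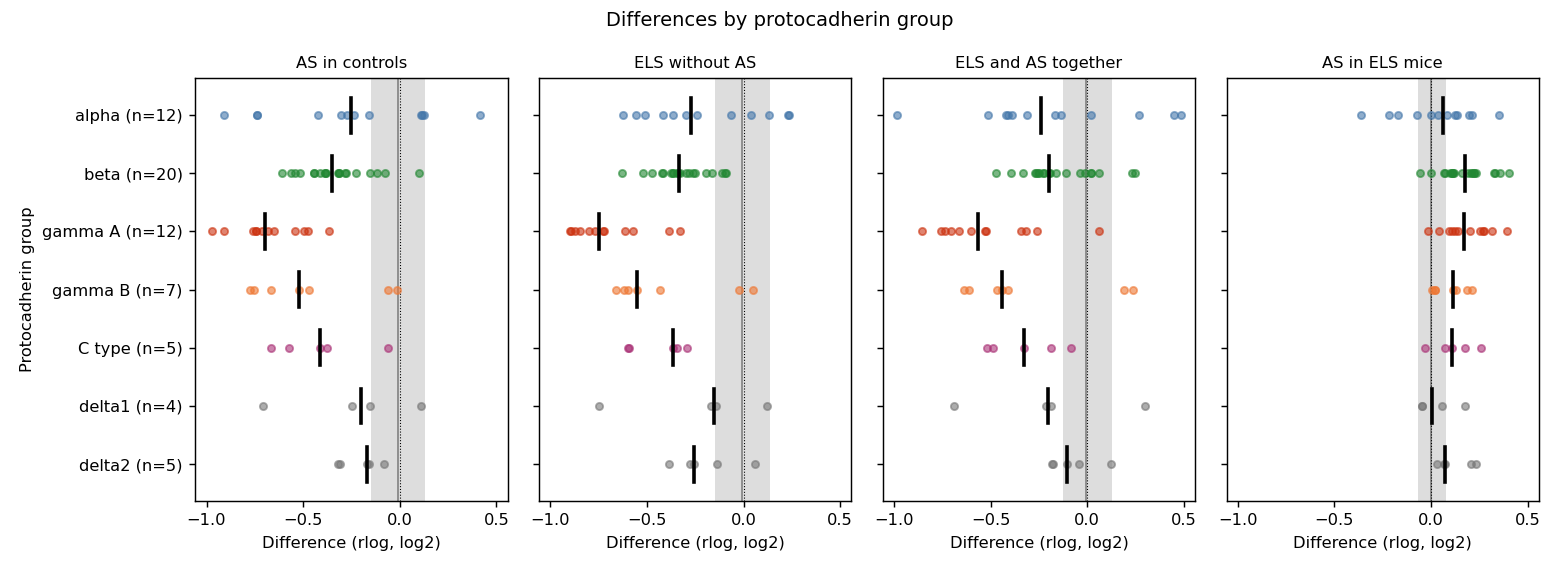
Difference between groups (x axes, rlog values on the log2 scale) for members of 7 protocadherin groups (y axis; Pcdh15 and Pcdh20 are not drawn), in 4 comparisons, with 1 point per gene, a black bar at the median, a grey band from the lower to the upper quartile of all genes and a grey line at their median. The gamma A median was −0.70, −0.75 and −0.57 in the comparisons with unstressed controls and 0.17 for AS in ELS mice.

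The gamma A genes had the lowest medians relative to controls of the protocadherin groups, although the lowest single gene in the comparison of ELS with AS was the alpha gene Pcdha9 (−0.98). All 12 gamma A genes were lower by over 0.25 after AS in controls and in ELS mice, and 11 were in ELS mice with AS, with medians of −0.70, −0.75 and −0.57. Their linear sum was 62.9%, 61.9% and 70.1% of the control sum. Of the 7 gamma B genes, 5 were lower by over 0.25 in each of the 3 groups, with medians of −0.52, −0.55 and −0.44.

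Pcdhga5, a gamma A gene, was 6.85 in unstressed controls, 5.88 in controls with AS, 5.95 in ELS mice and 6.00 in ELS mice with AS. The stressed groups lay within 0.12 of each other and the control value stood alone above them. The difference after AS in controls, −0.97, was the lowest of all clustered genes and ranked 11 from the lowest among 14986 genes, which corresponds to a linear ratio of 0.51.

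Pcdhga3 had the same order of groups, with 7.45 in controls, 6.54 after AS, 6.56 in ELS mice and 6.70 in ELS mice with AS. It ranked 16 from the lowest for AS in controls (−0.91) and 33 for ELS (−0.90). Pcdhga8 was 6.83, 6.12, 5.96 and 6.23, with its lowest value in unstressed ELS mice, a difference of −0.87. In both genes every stressed group was lower than controls by over 0.5.

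Pcdhga1, the first gene of the gamma cluster, behaved differently among the gamma A genes. It was 5.88 in controls, 5.52 after AS, 5.55 in ELS mice and 5.94 in ELS mice with AS, so that the last group was at the control level. Pcdhgb7 was 6.42, 6.41, 6.40 and 6.61, and Pcdhgb8, an unprocessed pseudogene in the annotation used for lengths, was 4.94, 4.88, 4.99 and 5.18. Neither was below controls by over 0.25 in any group.

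The 5 C type genes are expressed more evenly across neurons than the other clustered genes. They included the 3 clustered genes with the highest mean values, Pcdhgc5, Pcdhac2 and Pcdhgc3. Their median per length was 6.19 (mean value minus log2 of the transcript length in kilobases) beside 3.72 for all clustered genes, 6.24 for non-clustered genes and 7.06 for all genes. The other C type genes, Pcdhac1 (3.51) and Pcdhgc4 (3.61), were below the clustered median per length. The differences of the C type genes from controls had medians of −0.41, −0.36 and −0.33, and the control value was the highest in 5 of 5.

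Pcdhgc5, whose protein has been found at inhibitory synapses, was 10.02 in controls, 9.35 after AS, 9.42 in ELS mice and 9.53 in ELS mice with AS. It alone made 17.0% of the linear sum of clustered genes in unstressed controls. Pcdhac2, needed in mice for the spacing of serotonergic axons, was 9.39, 8.98, 8.80 and 8.87. Both had their 3 stressed values together and below the control value.

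Pcdhgc3, which promotes dendrite branching of cortical neurons in mice, was 8.65, 8.27, 8.29 and 8.46. Pcdhgc4, the gamma gene that neurons need for survival in mice, was 6.19, 5.62, 5.84 and 6.10, with ELS mice after AS close to controls. Pcdhac1 was 6.12, 6.06, 5.82 and 5.79, the one C type gene whose value after AS in controls was within 0.25 of the control value.

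**Figure D3:**
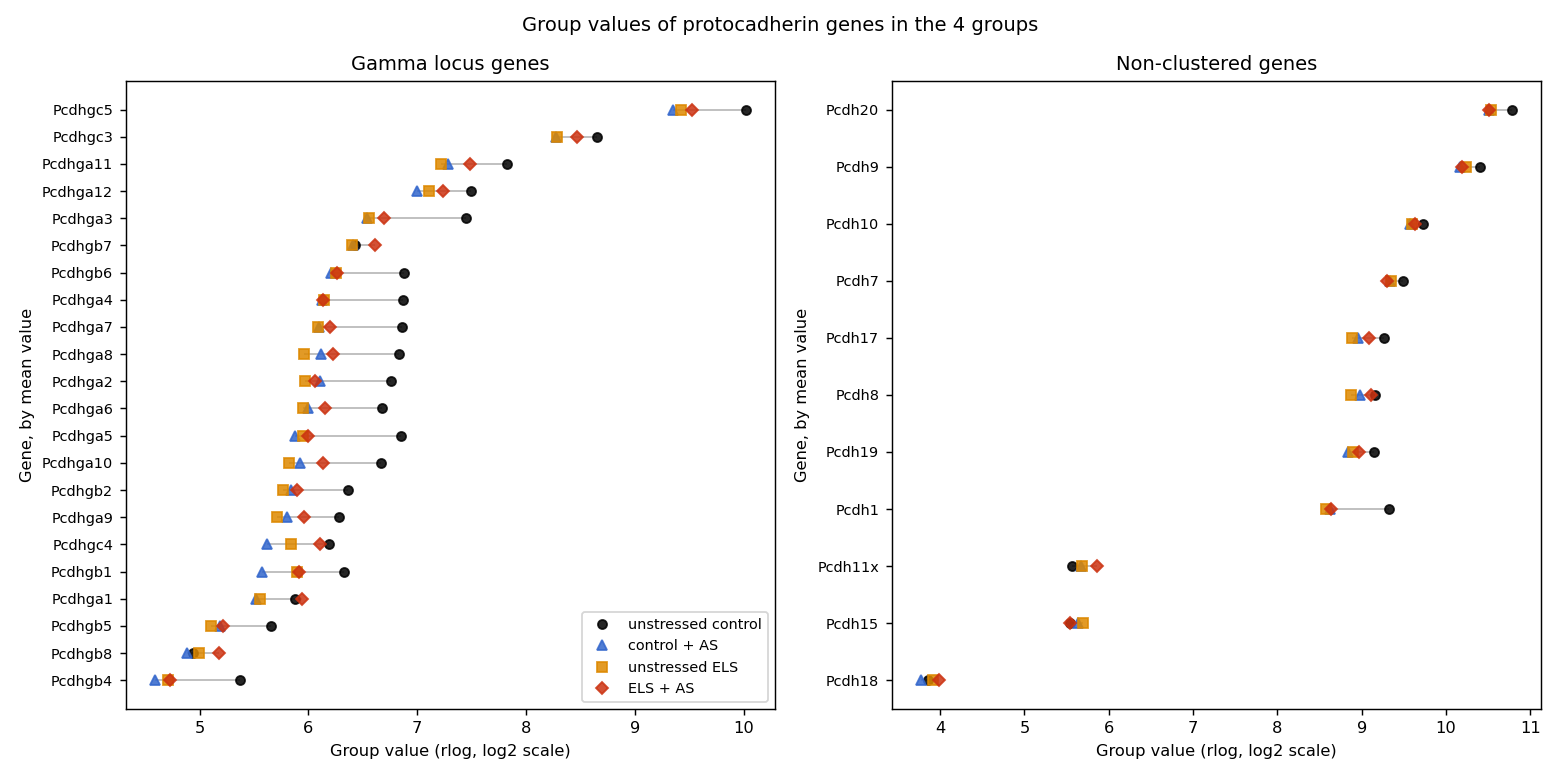
Group values (x axis, rlog values on the log2 scale) of the 22 gamma cluster genes and the 11 non-clustered genes that met the minimum, ordered by mean value (y axis), where circles are unstressed controls, triangles controls after AS, squares ELS alone and diamonds ELS plus AS. In 19 of the 22 gamma cluster genes the control value is the highest, and among non-clustered genes the gap is widest for Pcdh1, at 9.33 beside 8.62, 8.58 and 8.64.

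Reads from shared constant exons cannot be assigned to 1 alpha or gamma gene. Cut into windows of 100 bases, the read length, the longest annotated transcripts of the alpha genes had a median of 55.2% of windows that also occur in another protocadherin transcript, and the gamma genes ranged from 5.55% for Pcdhgc5 to 64.0% for Pcdhga4, whereas the beta genes had a median of 0.21% and the non-clustered genes 0%. Over the 22 gamma cluster genes, which share constant exons and their reads, the share of such windows and the difference after AS in controls had a Spearman rho of 0.01, and over 11 alpha genes it was 0.47. Most shares in either cluster lie close together, which leaves little for these descriptions to show. The beta genes reached 5.47% (Pcdhb22), about the share of the longest Pcdhgc5 transcript (5777 bases). Only the longest transcript of each gene was cut into windows, and windows shared with genes outside the Pcdh symbols, such as Gm38667, were not counted. The values of single alpha and gamma genes carry more of this uncertainty than those of beta genes, and its size for Pcdhgc5 is not known from the longest transcript.

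A further annotated gene, Gm38667, overlaps the alpha and gamma clusters. RefSeq gives it the synonym Pcdha7-g and places it at chr18:36973802-37841873 (GRCm38.p6), from Pcdha7 to the end of the gamma cluster, and its symbol keeps it out of the members. It was 11.18 in unstressed controls, 11.48 after AS, 11.45 in ELS mice and 11.50 in ELS mice with AS, above every clustered gene in each group. Its values were higher than controls by 0.30, 0.27 and 0.33 where those of the gamma genes were lower. The linear sum of the 22 gamma cluster genes was 65.9%, 67.1% and 74.5% of the control sum, and with Gm38667 added it was 88.7%, 88.4% and 94.8%. How reads were divided between Gm38667 and the gamma genes, and its part in their differences, was not tested.

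The beta genes, which share few windows, were lower too. Of the 20, 19 were below controls after AS, 20 in ELS mice, and 15 and 14 were lower by over 0.25. The medians were −0.35 for AS in controls, −0.33 for ELS and −0.20 for ELS with AS, a smaller size than in the gamma cluster.

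Among the beta genes, Pcdhb9 had the lowest difference after AS in controls, with values of 6.90, 6.29, 6.54 and 6.65 in the 4 groups. Pcdhb22 was 6.06, 5.52, 5.43 and 5.59, with the lowest difference in ELS mice (−0.63). Pcdhb15 (4.48, 4.58, 4.39 and 4.71) was the beta gene above controls after AS. The 2 beta genes of lowest mean, Pcdhb2 (3.49, 3.11, 2.97 and 3.16) and Pcdhb8 (3.82, 3.31, 3.54 and 3.66), had their highest value in controls like most of the others.

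The alpha genes were the most mixed. Their medians were −0.25, −0.27 and −0.24, yet their differences after AS in controls ran from −0.91 to 0.41, and 4 of the 12 were above controls. Pcdha9 was 6.40 in controls, 5.49 after AS, 5.78 in ELS mice and 5.42 in ELS mice with AS, and ranked 15 from the lowest of all genes for AS in controls. Pcdha8, the alpha gene of lowest mean, was 3.47, 3.23, 2.96 and 3.08.

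The alpha genes above controls after AS were Pcdha1, Pcdha2, Pcdha10 and Pcdha11. Pcdha10 was 5.30, 5.71, 5.43 and 5.78, so that both groups exposed to AS were higher than both that were not. Pcdha1 was 4.33, 4.46, 4.57 and 4.78, Pcdha2 was 5.24, 5.35, 5.47 and 5.51, and Pcdha11 was 6.16, 6.28, 6.20 and 6.03. For Pcdha1, Pcdha2 and Pcdha10 the control value was the lowest of the 4.

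The delta1 genes have a long cytoplasmic tail that binds protein phosphatase 1. Pcdh1, known for its part in the airway epithelium, was 9.33 in controls, 8.62 after AS, 8.58 in ELS mice and 8.64 in ELS mice with AS, the widest gap of any non-clustered gene and 86 and 91 from the lowest of all genes in the first 2 comparisons. Pcdh7, which interacts with NMDA receptors in rodent neurons, was 9.49, 9.34, 9.35 and 9.30, and Pcdh9 was 10.41, 10.16, 10.24 and 10.19. Both were lower than controls in all stressed groups, by at most 0.25. The X-linked Pcdh11x went the other way, at 5.56, 5.67, 5.68 and 5.86.

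Of the 5 delta2 genes, Pcdh17, Pcdh8 and Pcdh19 were lower than controls by over 0.25 in unstressed ELS mice. Their promoters are shown for that reason, as 250 bases before and 50 after the start in RefSeq (GRCm38.p6), read on the gene's strand, with capitals for matches to 3 motifs on either strand: the GC box (GGGCGG), the CCAAT box (CCAAT) and the TATA box (TATAAA). With length removed, none of the 5 was lower by over 0.25 (−0.19 for Pcdh8, −0.25 for Pcdh17 and −0.12 for Pcdh19). Pcdh8 is at chr14:79771263-79771562 on the minus strand, Pcdh17 at chr14:84443313-84443612 on the plus strand and Pcdh19 at chrX:133688944-133689243 on the minus strand.
Pcdh8: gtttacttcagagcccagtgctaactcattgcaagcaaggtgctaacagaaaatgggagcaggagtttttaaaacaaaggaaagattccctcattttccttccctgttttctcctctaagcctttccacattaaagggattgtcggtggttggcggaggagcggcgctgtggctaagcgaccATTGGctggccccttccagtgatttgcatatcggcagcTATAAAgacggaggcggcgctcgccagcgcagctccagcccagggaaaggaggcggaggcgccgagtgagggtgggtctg
Pcdh17: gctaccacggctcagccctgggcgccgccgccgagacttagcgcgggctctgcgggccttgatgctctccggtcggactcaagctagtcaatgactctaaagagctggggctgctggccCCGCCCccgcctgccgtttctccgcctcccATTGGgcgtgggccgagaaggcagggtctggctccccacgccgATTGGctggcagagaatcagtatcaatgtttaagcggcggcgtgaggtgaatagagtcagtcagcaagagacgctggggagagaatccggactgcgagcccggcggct
Pcdh19: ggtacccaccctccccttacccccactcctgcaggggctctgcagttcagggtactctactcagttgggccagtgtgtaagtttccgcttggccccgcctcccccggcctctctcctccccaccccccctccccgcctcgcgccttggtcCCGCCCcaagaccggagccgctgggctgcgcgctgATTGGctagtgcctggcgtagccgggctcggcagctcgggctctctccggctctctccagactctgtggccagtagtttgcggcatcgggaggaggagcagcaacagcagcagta

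The Pcdh8 window had 54.3% G and C, 14 CpG pairs, 1 CCAAT box and 1 TATA box. The windows of Pcdh17 (65.0% G and C, 26 CpG pairs) and Pcdh19 (67.7% and 18 CpG pairs) held a GC box and no TATA box, with 2 CCAAT boxes for Pcdh17 and 1 for Pcdh19. Over 32851 promoters of the same length the median was 52.7% G and C with 7 CpG pairs, and 35.7% held a GC box, 37.4% a CCAAT box and 13.6% a TATA box. Promoters were found for 9 of the 11 non-clustered genes, and a match of letters is not a binding site.

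Pcdh17, which organizes presynaptic vesicle sites in mouse corticobasal circuits, was 9.27 in controls, 8.96 after AS, 8.88 in ELS mice and 9.09 in ELS mice with AS. Pcdh8, also called arcadlin, is induced by neuronal activity and leads to the removal of N-cadherin from synapses, and it was 9.15, 8.98, 8.88 and 9.11. Pcdh19, whose loss causes an epilepsy of girls and women in humans, was 9.15, 8.83, 8.89 and 8.97. In all of them the control value was the highest, and for Pcdh8 the group with both stresses was 0.04 below it.

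Pcdh10, which takes part in synapse elimination in mouse neurons, was 9.73, 9.57, 9.60 and 9.63, below controls by less than 0.25 in every stressed group. Pcdh18 was 3.86, 3.78, 3.92 and 3.98. Pcdh15, a component of the tip link of inner ear hair cells, was 5.54, 5.63, 5.69 and 5.54, and Pcdh20 was 10.78, 10.51, 10.53 and 10.51. Pcdh20 had the highest level per length of all members, 8.19, and a control value above 3 nearly equal stressed values, whereas the groups lay within 0.21 of each other for Pcdh18 and within 0.15 for Pcdh15.

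AS in ELS mice was compared with unstressed ELS mice, a pair of groups that does not include controls. Of 67 members, 55 were higher after AS, against 50.8% of all genes, with a median of 0.11. Higher by over 0.25 were 11 members (16.4%), all of them clustered, against 5.11% of all genes, and Pcdha9 (−0.36) was the only one lower by over 0.25, against 1.96% of all genes. The clustered genes had a median level of 5.94, below the 8.87 of all genes. Of all genes with a mean of 5 to 7, 10.1% were higher by over 0.25, and of those with a mean of 3 to 5, 8.62% were. The 11 became 7 with groups centred, with transcript length removed or with the mean-value trend removed, and 3 with a mean of at least 6. None differed by over 0.5. The differences were largest for Pcdhb19 (4.93 in controls, 4.49 after AS, 4.52 in ELS mice and 4.92 in ELS mice with AS), Pcdhga1 (0.39) and Pcdhb3 (5.54, 5.23, 5.43 and 5.79).

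The lowest members beside Pcdha9 were Pcdha12 (7.07, 6.65, 6.77 and 6.56) and Pcdha11, both within 0.25. Markers of other cells were higher in the same comparison, with 8 of 8 astrocyte, 8 of 8 oligodendrocyte, 10 of 10 interneuron, 6 of 6 oligodendrocyte precursor, 7 of 8 microglia and 7 of 8 dentate granule genes above unstressed ELS mice and medians of 0.50, 0.45, 0.26, 0.34, 0.28 and 0.36. The CA3 markers were lower in 7 of 8. The part of these lists in the protocadherin values was not tested.

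Among mice exposed to AS, those raised under ELS had higher values than controls in 57 of 67 members, against 49% of all genes, with a median of 0.13. Higher by over 0.25 were 13 members (19.4%), 5 of them beta, 4 alpha and 4 of the gamma cluster, against 6.89% of all genes, and Pcdhac1 (−0.27) alone was lower by over 0.25, against 2.6%. Of all genes with a mean of 5 to 7, 13.1% were higher by over 0.25, and of those with a mean of 3 to 5, 10.1% were. Pcdhb3 had the largest difference, 0.56, followed by Pcdhgc4 with 0.49. In 52 of 67 members the group with both stresses had the highest of the 3 stressed values, against 35.5% of all genes. The astrocyte and oligodendrocyte marker lists were higher in this pair of groups too, with medians of 0.63 and 0.69.

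The AS effect in ELS mice minus that in controls was positive in 63 of 67 members, against 52.6% of all genes, and over 0.25 in 51, against 19.3% of all genes, and the control value counts upward in it. Its median was 0.57 for clustered and 0.20 for non-clustered genes, beside 0.02 for all genes. The largest values were those of Pcdhga10 (6.67 in controls, 5.92 after AS, 5.82 in ELS mice and 6.14 in ELS mice with AS), at 1.06, and of Pcdhga3, at 1.05. In both, all stressed groups were below the control level, and ELS mice were higher with AS than without it, by 0.32 and 0.14.

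Across genes the AS difference in controls and that in ELS mice, which share no group, had a Pearson r of 0.23 over the 56 clustered genes and 0.41 over the 22 gamma cluster genes, and −0.17 over all genes. These are descriptions over genes of the same libraries that partly share reads.

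**Figure D4:**
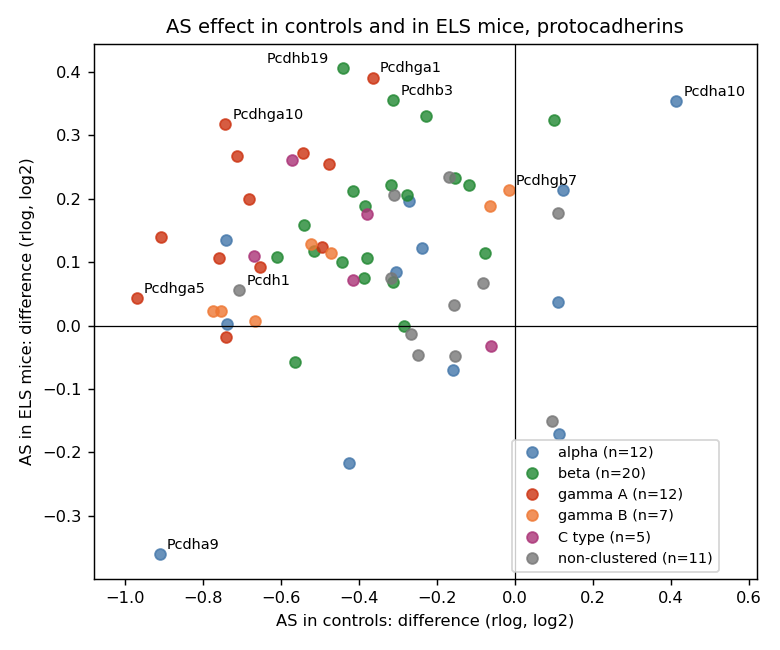
AS difference in controls (x axis) and in ELS mice (y axis), both as rlog values on the log2 scale, with 1 point per protocadherin colored by subfamily. Most points lie at the upper left, with 60 of 67 members lower after AS in controls and 55 of 67 higher after AS in ELS mice, and Pcdha9 (−0.91 and −0.36) and Pcdha10 (0.41 and 0.35) stand apart.

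Regulators of cluster promoter choice and architecture were also mostly lower. Of 20 measured, 16 were below controls after AS and 18 in ELS mice, beside 51.7% and 51.5% of all genes. By over 0.25, 10 and 7 were lower, beside 12.3% and 11.9% of all genes, and the medians were −0.27 and −0.18. The longest transcripts of this list had a median of 6178.5 bases, beside 3396 bases for all genes. Length was not removed for this list, and its part in these counts was not tested. Pds5a, a cohesin regulator, was 9.25, 8.54, 8.50 and 8.67, and Stag2, a cohesin subunit, was 10.73, 10.25, 10.60 and 10.78. Ctcf, the insulator protein of the clusters, was not lower, at 11.36, 11.43, 11.53 and 11.48, nor was Wiz, a zinc finger protein, at 10.40, 10.60, 10.54 and 10.52.

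Intracellular partners and processing enzymes had smaller differences, with 16 of 24 lower after AS in controls, 4 of them by over 0.25, 18 of 24 lower in ELS mice, 7 of them by over 0.25, and medians of −0.17 and −0.15. The shares lower by over 0.25 compare with 12.3% and 11.9% of all genes, so that the 4 of 24 after AS in controls were close to the share over all genes. Nlgn1, a neuroligin that gamma protocadherins bind, was 9.62, 9.22, 9.22 and 9.26, and Cyfip1, of the WAVE complex, was 11.34, 11.01, 10.98 and 11.11. Marcks, an actin-binding membrane protein, was higher in all stressed groups, at 11.55, 11.83, 11.97 and 12.00, and Brk1, another WAVE subunit, was 12.56, 12.74, 12.79 and 12.68.

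Other genes of the cadherin superfamily lay between all genes and the clustered protocadherins. Of 33 with a mean of at least 3, 29 were lower after AS in controls and 29 in ELS mice, beside 51.7% and 51.5% of all genes. By over 0.25, 17 and 14 were lower, beside 12.3% and 11.9% of all genes. The medians were −0.25 and −0.19, near those of the non-clustered protocadherins (−0.17 and −0.17) and of the alpha genes (−0.25 and −0.27). The longest transcripts of the 33 other cadherin genes had a median of 4459 bases, beside 3396 bases for all genes, and length was not removed for them. Cdh24, which is also on the CA3 marker list, was 7.10, 6.54, 6.51 and 6.46, and the retinal and olfactory gene Cdhr1 was 6.93, 6.46, 6.34 and 6.42. Cdh15, a cadherin of muscle and cerebellum, was 6.09, 6.24, 6.21 and 6.13. For AS in ELS mice 24 of 33 were higher, with a median of 0.10.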

How the data were processed

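The authors trimmed and aligned reads to mm10 with Rsubread, quantified transcripts with Salmon, took gene counts with tximport and analyzed them with DESeq2. The values they deposited are rlog values on the log2 scale, 1 per gene and group. How libraries were combined, and whether values were batch-corrected with limma, is not given in the sources used here, nor are versions. Number of unused columns of values: 0.

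Of 20196 rows, 25 had a date as symbol and 20171 were used. Differences of group values were computed with a minimum mean of 3, a size of 0.25 or 0.5 for counts, and no test, as each group has 1 value. The members and lists were chosen with earlier results of these data known. Values in all groups are given for every non-clustered member and for the 3 highest and 3 lowest clustered members by level and by 3 of the differences, and other members were named freely. Of other lists, names came from the 2 genes furthest from 0 in each direction in a comparison. Outside this rule, Taf7 and Diaph1 were named among the neighbors, each with its place beside the clusters. Transcript lengths and 100-base windows came from GENCODE M21, promoters and positions from RefSeq, both of GRCm38. Length was removed as the median of 50 bins. Alternatives were no minimum, a mean of at least 6, sizes of 0.1 and 0.5, centring, removal of length or mean-value trends, the mean over members, and leaving out C type genes. Leaving out the gamma cluster or Pcdh1 was chosen after seeing the data. The code was tested on simulated data. Python 3.11.15, numpy 2.4.6, pandas 2.3.3 and matplotlib 3.10.9 were used.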

Additional observations from a re-analysis of the deposited data

Results flagged for a closer look

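In 8 of 67 protocadherins (11.9%), AS went in opposite directions in controls and in ELS mice, by over 0.25 each way, as it did in 226 of all genes (1.51%). The difference between the AS effects was not tested, since each group has 1 value. It was 1.06 for Pcdhga10 (−0.74 in controls and 0.32 in ELS mice), 0.98 for Pcdhga8 (−0.71 and 0.27), 0.81 for Pcdhga11 (−0.54 and 0.27), 0.76 for Pcdhga1 (−0.36 and 0.39) and 0.73 for Pcdhga9 (−0.48 and 0.25). Outside the gamma A genes it was 0.83 for Pcdhgc4 (−0.57 and 0.26), 0.85 for Pcdhb19 (−0.44 and 0.41) and 0.67 for Pcdhb3 (−0.31 and 0.35). None of the 8 was an alpha or a non-clustered gene. In ELS mice Pcdhga8, Pcdhga9, Pcdhga11 and Pcdhgc4 were only just past 0.25, the closest to it of the 11 members higher by over 0.25 there. Those 11 became 7 with groups centred on their medians and 3 with a mean of at least 6, so the count of 8 depends on the processing.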

How the results depend on the processing

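No median of the clustered, non-clustered or gamma cluster genes changed sign in 126 alternatives. The following moved by over 0.05, with the cause not tested. With a mean of at least 6, the clustered genes gave −0.54 (AS in controls) and −0.41 (ELS with AS), those of the gamma cluster −0.72 for ELS and −0.57 for ELS with AS, and those of the non-clustered genes −0.26 for AS in controls and −0.26 for ELS, while the AS effect in ELS mice minus that in controls was 0.67 for clustered and 0.32 for non-clustered genes. With length removed, the gamma cluster gave −0.58, −0.52 and −0.40 for AS in controls, ELS and both, the non-clustered genes −0.11, −0.041 and −0.027, and the difference of the AS effects was 0.49 for clustered, 0.64 for gamma cluster and 0.063 for non-clustered genes. With groups centred that difference was 0.50, 0.70 and 0.14. With the mean over members, the gamma cluster gave −0.59 for AS in controls and −0.42 for both stresses, and the non-clustered difference of AS effects was 0.25. With the mean-value trend removed, the clustered median for both stresses was −0.33. Without the gamma cluster, chosen after seeing the data, clustered medians were −0.31, −0.31 and −0.21, and the difference of AS effects was 0.48.

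Counts of members higher by over 0.25 also changed. For AS in ELS mice, 11 became 7 with groups centred, length removed or the mean-value trend removed. With a mean of at least 6, which 33 members met, the 11 became 3. With the same minimum the 4 for ELS with AS became 0, and the 13 for ELS among mice exposed to AS became 3. For ELS, 0 became 2 with groups centred and 4 with length removed. With length removed, the delta2 median for both stresses turned from −0.10 to 0.02.

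No paired analysis was possible because the table holds 1 value per group, while only the sample titles carry replicate numbers. For the same reason no library was left out, and the spread between libraries, on which the weight of every difference depends, is unknown. rlog shrinkage is strongest for genes with few reads, such as Pcdha8 and Pcdhb2.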

Other observations

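The neighborhood of the clusters was looked at after the protocadherin values were known. Within 1 Mb on either side of the clusters (chr18:36930285-37841873, GRCm38.p6) lie 33 other genes with a mean of at least 3, without Gm38667 and Pcdh1. The control value was the highest in 11 of them (33.3%, beside 37.4% of all genes). In all stressed groups 1 was lower than controls by over 0.25 (3.03%, beside 5.51% of all genes). That gene was Rnf14 (−0.26, −0.32 and −0.25), while Igip was higher (0.54, 0.59 and 0.41). The medians of the 33 genes were 0.03 for AS in controls, 0.06 for ELS and 0.05 for ELS with AS. Their longest transcripts had a median of 2872 bases, beside 4721.5 bases in the gamma cluster, and length was not removed. Taf7, a transcription factor subunit gene between the beta and gamma clusters, was 8.14 in controls, 8.16 after AS, 8.26 in ELS mice and 8.33 in ELS mice with AS. Diaph1, the formin gene next to the end of the gamma cluster, was 10.22, 10.10, 10.10 and 10.22. Both stayed within 0.20 of controls, beside a gamma cluster median of −0.66 for AS in controls. Pcdh1, the non-clustered member with the widest gap, lies 344 kb from the end of the gamma cluster. It is thus inside the 1 Mb, although not among the 33 genes counted. It was lower than controls by over 0.25 in all stressed groups (−0.71, −0.75 and −0.69).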
